A study of Saccharomyces cerevisiae with 3 samples.

Results

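The route from external sulphate to cysteine was followed in the budding yeast Saccharomyces cerevisiae through 10 genes. SUL1 and SUL2 encode the sulphate permeases, MET3, MET14 and MET16 the enzymes that turn sulphate into sulphite, MET5 and MET10 the subunits of sulphite reductase, MET17 the enzyme that fixes sulphide into homocysteine, and CYS4 and CYS3 the enzymes that turn homocysteine into cysteine. The genes were taken by symbol, as probe sets that the platform annotation assigns to a single gene, and all 10 were found among the 5656 genes measured. Each of the 10 had 1 probe set. Signals came from 3 independent chemostat cultures grown under the same condition, each on its own Affymetrix array. A chemostat is a continuously fed culture in which the feed rate sets the growth rate. Here glucose limited growth, air was supplied, the dilution rate was 0.10 per h, and the cultures were held at 30 °C and pH 5.0. The labels name neither a strain nor a gene alteration. With 1 group there is no contrast between conditions, so no test was made, and spreads between cultures are given as a description.

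Yeast takes up sulphate, activates it with ATP and phosphorylates it to phosphoadenosine phosphosulphate (PAPS), reduces it to sulphite and then to sulphide, and joins sulphide to O-acetylhomoserine to give homocysteine. Homocysteine then goes either to methionine or, by way of cystathionine, to cysteine, the precursor of glutathione. The genes of this route are known for their shared activation by the transcription factor Met4, which works with Cbf1, Met28, Met31 and Met32 and is held in check by the ubiquitin ligase subunit Met30 when cysteine is plentiful. The medium supplied sulphur mainly as sulphate salts, with 5.0 g of ammonium sulphate and 0.5 g of magnesium sulphate heptahydrate per litre beside 4.5 mg of zinc sulphate heptahydrate, and the labels name no amino acid among its components.

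The deposited intensities of the 3 arrays did not share a scale. Over genes, their medians were 54.7, 127 and 96.7 for cultures 1, 2 and 3, so a gene that kept its place on the arrays read higher in culture 2 than in culture 1. Signals are therefore given as deposited and, for comparing cultures, as deviations in log2 from the gene's mean over the cultures, once each array had been set to the same median over genes (a common median). Genes below the 30th percentile of mean signal (48.3) are called dim, and 3959 genes were not dim. Control probe sets for the sense strand, which have no labelled target, reached at most 26.3. Markers of haploid a cells were measured above the dim limit for 5 of 5 genes, while 4 of 4 markers of alpha cells and 4 of 4 markers of meiotic cells were dim. The summed signal of the a-cell markers was 1495, 6903 and 3495 in cultures 1, 2 and 3. Actin control probe sets had a 3′ to 5′ signal ratio of 1.43, 1.27 and 1.23 in the same order. The part of these differences in the results below was not tested.

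All 10 genes gave signal well above the sense-strand controls in all 3 cultures. Their lowest single value was 145, that of MET16 in culture 1, and none of the 10 was dim, beside 30% of all genes by definition. As deposited, 9 of the 10 were highest in culture 2 and lowest in culture 1, an order that 86.3% of all genes not dim shared. CYS3 was the exception: it was lowest in culture 2, as were 0.834% of genes not dim. A range of over 2-fold between cultures was reached by 8 of the 10 genes, beside 75.5% of genes not dim, so that count lay near the background. By pairs of cultures, 8 of the 10 were over 2-fold higher in culture 2 than in culture 1 (72.3% of genes not dim), 4 were so in culture 3 over culture 1 (23.5%) and 0 in culture 2 over culture 3 (2.68%). It rested on cultures 1 and 2, being 0 of 10 without culture 1, 4 without culture 2 and 8 without culture 3. Probe sets bind their targets with unequal efficiency, so the signals do not rank the 10 genes by transcript level.

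**Figure D1:**
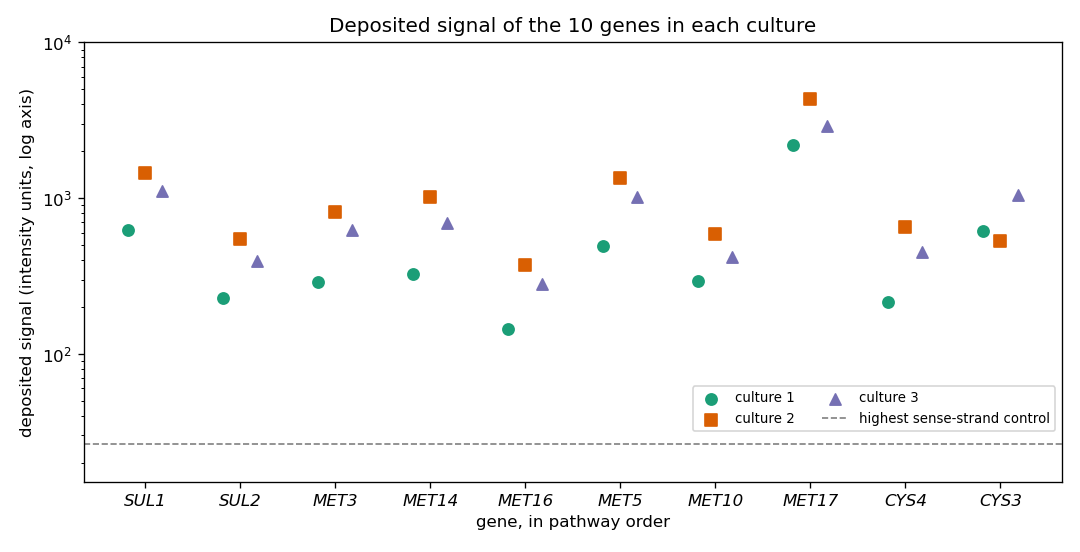
Deposited signal (intensity units, log axis) of the 10 genes in pathway order, with 1 point for each of the 3 cultures and a dashed line at the highest sense-strand control (26.3). In 9 genes culture 2 is the highest and culture 1 the lowest, while CYS3 reads 616, 531 and 1044 in cultures 1, 2 and 3.

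The sulphate permease genes kept the same place on all 3 arrays. SUL1, a high-affinity permease, read 620, 1444 and 1110 in cultures 1, 2 and 3, with a mean of 1058 ± 415 (SD, n = 3). At a common median these values became 994, 994 and 1006, a range of 1.01-fold. Only 0.202% of genes not dim had a smaller SD between cultures than SUL1. SUL2, the second high-affinity permease, read 227, 544 and 397, with a mean of 389 ± 158 (SD, n = 3). Its common-median values were 365, 374 and 360, a range of 1.04-fold. The signal ratio of SUL1 to SUL2 within an array, in which any single factor per array cancels, was 2.73, 2.66 and 2.80. Its size carries the probes' own efficiencies, and its spread over the arrays was 1.05-fold. The closeness of SUL1 depended on the scaling, its log2 range being 0.02 at a common median, 0.19 after cyclic loess and 1.03 when arrays were scaled to the hybridization controls.

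The genes for sulphate activation and reduction stood somewhat lower in culture 1 than in the others. MET3, the ATP sulphurylase that activates sulphate, read 291, 811 and 624 in cultures 1, 2 and 3, with a mean of 575 ± 264 (SD, n = 3). Culture 1 was the low sample beyond the array-wide difference, with log2 deviations of -0.18, 0.08 and 0.10 at a common median. MET14, the adenylylsulphate kinase that makes PAPS, read 327, 1016 and 690, with a mean of 678 ± 345 (SD, n = 3). Its deviations were -0.22, 0.19 and 0.03, and its 3.11-fold range as deposited was the widest of the 10 genes. MET16, the PAPS reductase that yields sulphite, read 145, 369 and 279, with a mean of 264 ± 113 (SD, n = 3). Its deviations were smaller, at -0.08, 0.04 and 0.04. The range at a common median was 1.21-fold for MET3, 1.33-fold for MET14 and 1.09-fold for MET16, none of which is wide beside a median log2 range of 0.35 for genes not dim (0.28, 0.41 and 0.13 for these genes). All 3 also deviated below 0 in culture 1 with quantile normalization, cyclic loess and a common trimmed mean.

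The genes of the sulphite reductase subunits differed from each other about as much as the median pair of genes not dim. The SD of their log2 ratio was 0.29, beside a median of 0.27 over all such pairs, which were not matched in signal. MET5, the beta subunit, read 494, 1351 and 1019 in cultures 1, 2 and 3, with a mean of 955 ± 432 (SD, n = 3). Its common-median deviations of -0.15, 0.08 and 0.07 made culture 1 the low sample, as for MET3. MET10, the alpha subunit, read 293, 589 and 417, with a mean of 433 ± 149 (SD, n = 3). Its deviations of 0.18, -0.04 and -0.14 put culture 1 highest instead. The ratio of MET5 to MET10 within an array was accordingly 1.69, 2.29 and 2.44, a spread of 1.45-fold. The ratio of MET3 to MET5 was steadier, at 0.588, 0.600 and 0.612. When arrays were scaled to the hybridization controls the deviation of MET10 in culture 1 became -0.44, since that scaling left the median of all genes 0.84 (log2) higher in culture 2 and 1.02 higher in culture 3 than in culture 1.

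MET17, the O-acetylhomoserine sulphhydrylase that turns sulphide into homocysteine, moved as MET10 did at a common median. It read 2183, 4346 and 2900 in cultures 1, 2 and 3, with a mean of 3143 ± 1102 (SD, n = 3), and no other of the 10 probe sets was as bright. Its deviations at a common median were 0.21, -0.01 and -0.20, so culture 1 was high and culture 3 low. Against MET10 its place was nearly fixed, with a MET10 to MET17 ratio of 0.134, 0.136 and 0.144. The deviation of MET17 in culture 1 depended on the scaling. It was 0.02 after cyclic loess, -0.04 after quantile normalization and -0.41 with hybridization controls. MET17 was highest in culture 2 after cyclic loess (0.06) and quantile normalization (0.15), while MET10 stayed highest in culture 1 (0.14 in both).

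The enzymes of transsulphuration, which pass sulphur from homocysteine to cysteine, departed from each other more widely than the genes within any other step. CYS4, the cystathionine beta-synthase, read 216, 648 and 452 in cultures 1, 2 and 3, with a mean of 439 ± 216 (SD, n = 3). Its deviations of -0.20, 0.16 and 0.04 resembled those of MET14, and the ratio of MET14 to CYS4 stayed at 1.51, 1.57 and 1.53. CYS3, the cystathionine gamma-lyase that releases cysteine, read 616, 531 and 1044, with a mean of 730 ± 275 (SD, n = 3). At a common median CYS3 stood at 988, 365 and 946, so that cultures 1 and 3 lay close together and culture 2 was 2.70-fold below culture 1. Its deviations were 0.50, -0.94 and 0.44, and in culture 2 only 12 of the 3959 genes not dim deviated further down. The within-array ratio of CYS4 to CYS3 was 0.351, 1.22 and 0.433.

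At a common median CYS3 alone among the 10 genes ranged over more than 2-fold between cultures, beside 3.59% of genes not dim. For such ranges with culture 2 the lowest the share was 2.42%. Among the 566 genes over the 90th percentile of mean signal (589.6), which include CYS3, 2.12% ranged over more than 2-fold. The other 9 genes all kept within a log2 range of 0.5, as did 73.6% of genes not dim. The spread of CYS3 rested on culture 2, since its log2 range was 1.44 over all cultures, 1.37 without culture 1, 1.44 without culture 3 and 0.06 without culture 2. CYS3 was lowest in culture 2 under each scaling tried, with deviations there from -0.71 to -0.94. Its deviation in culture 1 turned to -0.12 with hybridization controls and was 0.39 or more under the others, cultures left out aside.

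**Figure D2:**
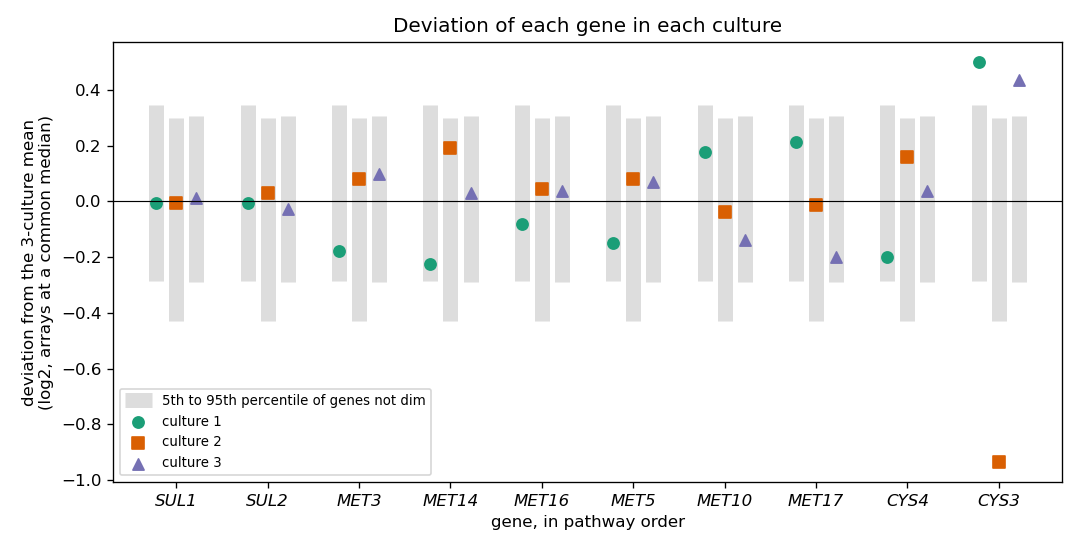
Deviation of each gene from its mean over 3 cultures (log2, arrays at a common median), with 1 point for each culture and grey bars from the 5th to the 95th percentile of the 3959 genes not dim. CYS3 lies outside the bars in all cultures, at 0.50, -0.94 and 0.44, and the other 9 genes lie within them.

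**Figure D3:**
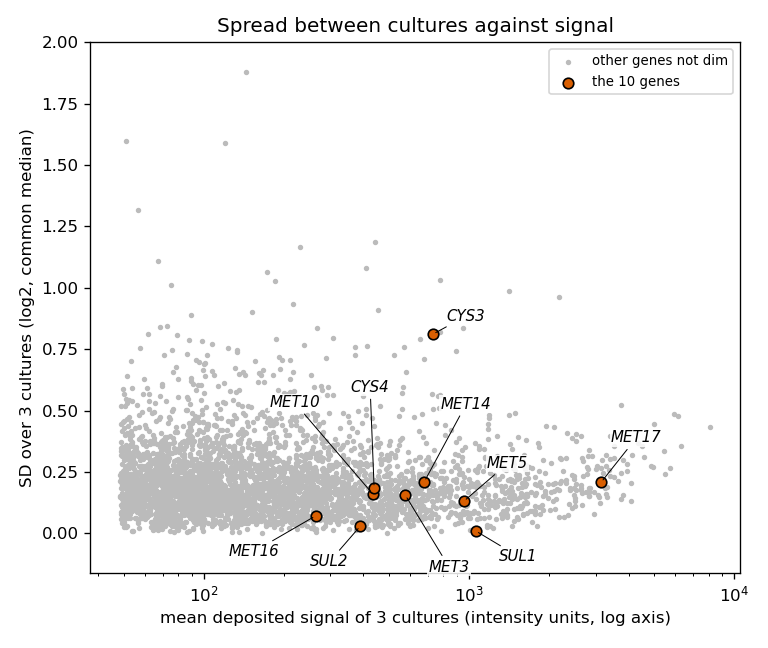
SD over 3 cultures (log2, arrays at a common median) against mean deposited signal (intensity units, log axis), with the 10 genes marked among the genes not dim. SUL1 and SUL2 lie near the lower edge at 0.01 and 0.03, while CYS3 lies at 0.81 among genes of similar signal that are mostly far below it.

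Ratios between probe sets within an array cancel any single factor per array. They restate the common-median deviations and are no separate support for them. Differences between arrays that depend on signal remain in them. The 10 genes form 45 pairs, with a median SD of the log2 ratio of 0.19 over the cultures, and all pairs of genes not dim had a median SD of 0.27. The 36 pairs without CYS3, which was set aside after its values were seen, had a median of 0.16 and are not set against all pairs. The widest of the 36 was MET3 to MET17, at 0.133, 0.187 and 0.215 in cultures 1, 2 and 3, a spread of 1.62-fold. The steady ratios given above are the lower end of the 36. They are MET14 to CYS4, MET3 to MET5, SUL1 to SUL2 and MET10 to MET17, with SDs of 0.03, 0.03, 0.04 and 0.05. As the smallest of many they do not show that these genes vary together. All 9 pairs with CYS3 spread over more than 2-fold, from 2.70-fold for SUL1 to 3.60-fold for MET14. The pairs share their genes and arrays, so they are not independent of each other. By these ratios and the common-median deviations, MET3, MET14, MET16, MET5 and CYS4 were each lowest in culture 1. MET10 and MET17 were highest there among genes other than CYS3, and SUL1 and SUL2 were nearly level. After quantile normalization or cyclic loess MET17 was instead highest in culture 2, and MET10 still in culture 1. Counted over all 10 at a common median, 5 were lowest in culture 1 (30.5% of genes not dim), 5 were highest in culture 2 (36.8%) and 2 were lowest in culture 2 (36%).

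Low readings in culture 2 were also seen in the genes beside CYS3 on the chromosome, which were looked at after its values were known. DEP1, the adjacent gene and a subunit of a histone deacetylase complex, read 109, 136 and 255 in cultures 1, 2 and 3. Its deviations were 0.16, -0.73 and 0.57. SYN8, an endosomal SNARE gene next to DEP1, deviated by 0.00, -0.39 and 0.38. ATS1, further along on that side, deviated by -0.54 in culture 2. In between, however, PSK1, TPD3 and NTG1 deviated upwards in culture 2, by 0.21, 0.24 and 0.17. On the other side of CYS3, SWC3 was dim and deviated by -0.01, and SPO7, FUN14 and ERP2 deviated by 0.35, 0.20 and 0.10. Further out on that side, SSA1 and EFB1 deviated by -0.30 and -0.01. Over the 14 neighbours not dim within 10 genes on either side the median deviation in culture 2 was -0.02, from -0.73 to 0.35. The lowest deviation in culture 2 among neighbours not dim was -0.86 around CYS4, -0.62 around MET5, -0.58 around SUL2 and -0.51 around MET10. It was -0.48 around MET3, -0.41 around MET16, -0.25 around SUL1, -0.23 around MET17 and -0.14 around MET14. These lowest neighbours did not adjoin their members, as DEP1 adjoins CYS3, but PTR3, which adjoins MET10, deviated by -0.40 in culture 2. Closeness to the member was looked at after the values were seen. Whether the lower readings beside CYS3 and that of CYS3 share a source was not tested. A control probe set for 25S ribosomal RNA read 134, 30.7 and 341 in cultures 1, 2 and 3. Its value in culture 2 was near the sense-strand maximum of 26.3. Only this ribosomal RNA control was looked at, and a link to CYS3 was not tested.

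**Figure D4:**
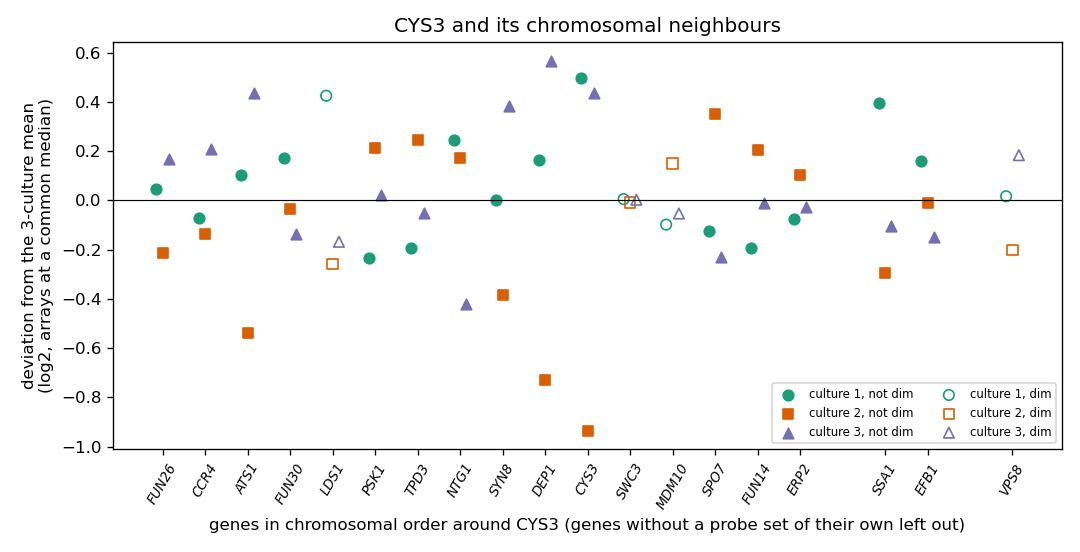
Deviation from the mean of 3 cultures (log2, arrays at a common median) for CYS3 and the genes up to 10 places away in chromosomal order, with filled points for genes not dim and open points for dim genes. Culture 2 falls to -0.39, -0.73 and -0.94 at SYN8, DEP1 and CYS3 and returns to -0.01 at SWC3.

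Other genes of sulphur metabolism, in 7 lists with 38 genes, were all measured. Of them 31 were not dim, beside 3959 of all 5656 genes. None of the 38 ranged over more than 2-fold at a common median. For the 31 not dim this is 0 beside the 3.59% given above, a share at which few or none would be counted among 31. As deposited, 31 of the 38 ranged over more than 2-fold, near the 75.5% of genes not dim, although the 38 include 7 dim genes. The median deviation of the 31 genes not dim was 0.03, 0.02 and -0.04 in cultures 1, 2 and 3. For the 10 genes from SUL1 to CYS3 it was -0.04, 0.04 and 0.03, and over all genes not dim it was 0.02, 0.01 and -0.01.

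The regulators of the route were all above the dim limit, as were 3959 of all 5656 genes. GCN4, the general activator of amino acid synthesis, read 2090, 4127 and 3077 in cultures 1, 2 and 3, and CBF1, the DNA-binding partner of Met4, read 29.5, 68.3 and 68.4. CBF1 had the largest SD between cultures of the regulators (0.23, log2 at a common median), although MET31 had a slightly wider range, and CBF1 showed deviations of -0.13, -0.14 and 0.26. MET4 itself read 85.2, 183 and 153, and MET30, whose product restrains Met4, read 122, 220 and 176. MET4, MET30, MET31, GSH1, TRX2, MUP3 and SAM3 were named beyond the rule for naming genes, after their values were seen. The 7 regulators had median deviations of 0.13, -0.08 and -0.07.

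Helpers of sulphate reduction included the brightest probe set of their list, that of thioredoxin gene TRX1, which supplies electrons for the PAPS reductase, at 997, 2611 and 1712 in cultures 1, 2 and 3. TRX2, its paralogue, read 475, 1133 and 606 and deviated by 0.15, 0.18 and -0.33. MET8, which makes the sirohaem cofactor of sulphite reductase, was the dim member of these 5 genes, at 30.2, 49.3 and 61.7. It was also the most variable of them, and its deviation of -0.41 in culture 2 was the lowest there among the 38 genes, at a signal not far above the sense-strand controls.

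Genes of the branches that feed or leave the route had log2 ranges at a common median from 0.09 (GSH1) to 0.58 (SER3), beside a median of 0.35 for genes not dim. In the homoserine branch, HOM6, the homoserine dehydrogenase, read 984, 2518 and 1693 and HOM3, the aspartate kinase, read 186, 398 and 320. MET2, which makes the O-acetylhomoserine used by Met17, deviated by -0.07, -0.11 and 0.18. Of the serine genes, whose product is joined to homocysteine by Cys4, SER1 read 211, 501 and 334. SER3 was the lowest and most variable of them, with deviations of -0.34, 0.10 and 0.24. STR3, a cystathionine beta-lyase of the reverse route from cysteine to homocysteine, read 326, 604 and 573. Its deviations of 0.11, -0.22 and 0.11 had the same signs as those of CYS3 but a range of 1.26-fold. These signs were not particular to STR3, since MET4, MET31, MET8, HOM3, OPT1, MUP3 and SAM3 had them too. MUP3 and SAM3 deviated by -0.25 and -0.24 in culture 2, and SAM3 was dim. GSH2, glutathione synthetase, read 61.3, 175 and 110.

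Most dim genes lay in the lists for other sulphur sources. Of 8 genes for uptake or efflux of other sulphur compounds 3 were dim, and of 5 enzymes for other sulphur sources 3 were dim. By definition 30% of all genes were dim, and with so few genes these counts are only a description. SSU1, the sulphite efflux pump, read 272, 725 and 496. OPT1, a glutathione and oligopeptide transporter, read 8.06, 14.9 and 13.3, under the sense-strand maximum. JLP1, a sulphonate dioxygenase, read 4.17, 11.6 and 9.76, also under that maximum. MMP1 and SAM4, for S-methylmethionine uptake and for making methionine from S-adenosylmethionine, were the most variable of their lists. Their deviations in culture 1 were -0.39 and -0.35, but SAM4 read only 29.7 in culture 1, not far above the sense-strand controls. MHT1, the S-methylmethionine methyltransferase, deviated by -0.24 there.

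**Figure D5:**
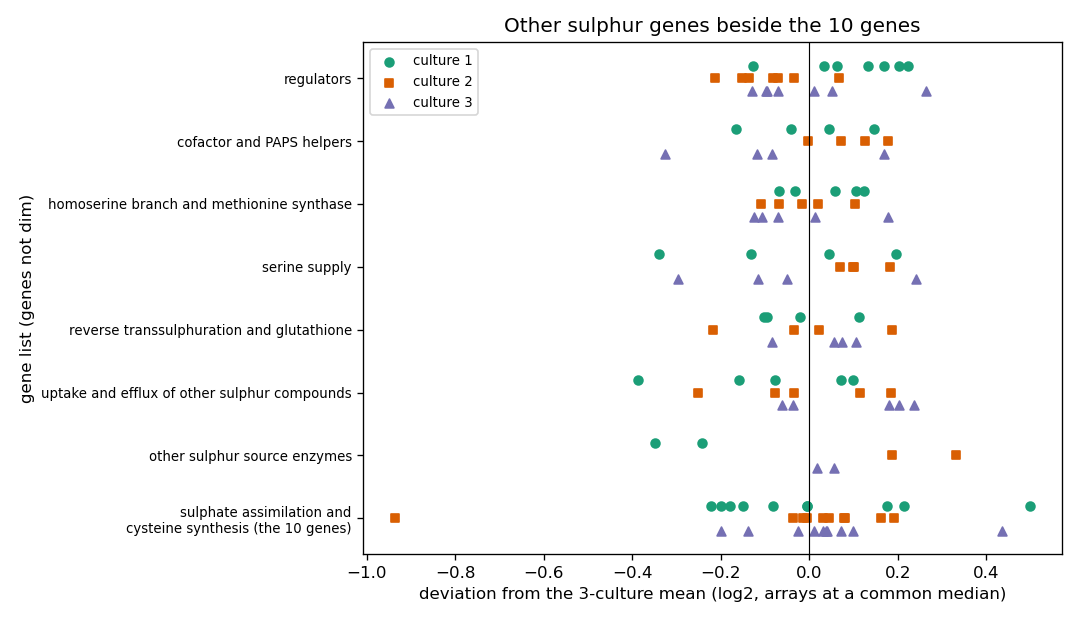
Deviation from the mean of 3 cultures (log2, arrays at a common median) of the genes not dim in 7 lists of other sulphur genes and, in the bottom row, of the 10 genes, with 1 point for each gene and culture. The lists lie between -0.39 and 0.33, and CYS3 stands alone at -0.94 in culture 2.

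The genes whose deviations came closest to the median of the 10 genes were SEC12, SPG5 and PSR2, with Euclidean distances of 0.018, 0.018 and 0.019 over the 3 cultures. SPG5, for example, read 279, 686 and 524 in cultures 1, 2 and 3. With 3 cultures and a median profile of -0.04, 0.04 and 0.03, likeness of this kind was common. Of the 3949 genes not dim outside the 10, 1063 (26.9%) lay within 0.18, the median distance of the 10 genes from their own profile. CYS3 lay at a distance of 1.19.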

How the data were processed

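Biotin-labelled RNA from 3 chemostat cultures was hybridized to 1 Affymetrix array each, per the labels' protocols. The table holds linear intensities per probe set, as deposited by the authors. The submitters' processing notes name GCOS, and no source used here gives the summary method, background correction or scaling. Values under 1 were set to 1 before log2 was taken. The number of arrays limits the precision, since the arrays hold 1 group and intensities carry no read depth. Genes were named from platform annotation, and 6504 of 9335 probe sets had 1 gene, 328 several, and 2443 others none, beside 60 controls. All 6504 matched a RefSeq gene table (assembly R64), used for names and gene order only. Each gene was represented by the probe set named with digits and _at, and otherwise by the brighter one. Arrays were brought to a common median over 5656 genes.

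The members, lists and alternatives were chosen with earlier results of these data known. Named genes are all 10 members, in each list the genes brightest and dimmest by mean signal and the one with the largest SD, and the 3 nearest profiles. Chromosomal neighbours of CYS3 were added after its values were seen. A planned search of promoter motifs was not made here. Alternatives used limma 3.58.1 in R 4.3.3, and other steps pandas 2.3.3 and numpy 2.4.6 in Python 3.11.15. The range step was tested on simulated data.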

Additional observations from a re-analysis of the deposited data

How the results depend on the processing

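The number of genes ranging over 2-fold as deposited (8 of 10) was 7 with log2(signal + 16), 0 to 8 with a culture left out, and 8 under the other alternatives run. At a common median it was 1, and it remained 1 with quantile normalization, cyclic loess, a common trimmed mean, a common median of genes not dim, log2(signal + 16) and the mean over probe sets. It ranged from 0 to 1 with a culture left out, and it was 0 without CYS3, which is the gene counted. Hybridization controls (9 probe sets), added after the data were seen like the omission of CYS3, gave 7, with median deviations of the 10 genes of -0.66, 0.26 and 0.43 in cultures 1, 2 and 3. That scaling left the median of all genes 0.84 (log2) higher in culture 2 and 1.02 higher in culture 3 than in culture 1. As deposited, the median log2 difference from culture 1 over genes not dim was 1.21 in culture 2 and 0.80 in culture 3. The median deviations otherwise ran from -0.13 to -0.03 in culture 1, from 0.02 to 0.09 in culture 2 and from -0.02 to 0.08 in culture 3. No paired analysis was possible because the cultures form 1 group. Of the 27 genes named by rule from the route and its lists, 0 crossed a 2-fold range under settings other than hybridization controls or a culture left out. Signals near 26.3 or less, as for OPT1 and JLP1, can be nonspecific. CBF1, SER3 and SAM4 read 29.5, 31.2 and 29.7 in culture 1, so their deviations there carry the same caution.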
